A study of Mus musculus with 12 samples.

Results

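The neurotrophin genes examined here were Ngfr, Bdnf, Ntf3, Ntrk2, Ntrk3 and Sort1, which are 6 of the 35275 genes in the deposited count table. They were chosen by symbol, and the set was selected on the TGF-β1 response of Ngfr, whose counts were already known to be higher with TGF-β1 in control and in Smad7-KO cells. RNA-Seq had been performed on cardiac fibroblasts of C57BL/6 mice aged 12 weeks that carried a floxed Smad7 gene, used at passage 2. All cells were infected with an adenovirus at 100 MOI for 48 hours, which expressed Cre recombinase in Smad7-KO cells and, per the labels, GFP in control cells, whereas the study's methods describe the control virus as empty. Cells were then left unstimulated or received 10 ng/ml TGF-β1, with a stimulation of 2 hours in the treatment label and of 4 hours in the labelled protocol. Each of the 4 conditions, called unstimulated control, unstimulated Smad7-KO, TGF-β1 control and TGF-β1 Smad7-KO here, had 3 libraries. The labels call the samples independent without naming cultures or animals, so the spread between libraries may be partly technical. Virus and genotype changed together, so the effects of Cre and of Smad7 loss cannot be told apart.

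Neurotrophins are small secreted growth factors, best known for keeping neurons alive and shaping their connections. The family includes BDNF, neurotrophin-3 (encoded by Ntf3) and neurotrophin-4 (encoded by Ntf5). Each mature factor binds a preferred Trk receptor tyrosine kinase, with TrkB (Ntrk2) for BDNF and neurotrophin-4, and TrkC (Ntrk3) for neurotrophin-3. All of them also bind p75NTR, a member of the TNF receptor superfamily encoded by Ngfr, which has a death domain and no kinase. The uncleaved pro-forms bind p75NTR together with sortilin, the sorting receptor encoded by Sort1. In the heart, BDNF and TrkB are known for roles in the coronary vessels. TGF-β1 is the main activator of fibroblasts, and Smad7 is an inhibitory Smad that restrains its signaling.

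In the deposited annotation, whose coordinates were taken as GRCm38, Ngfr (ENSMUSG00000000120) lies on the minus strand at chr11:95568818-95587735. Bdnf (ENSMUSG00000048482) lies on the plus strand at chr2:109674700-109727007, and Ntf3 (ENSMUSG00000049107) on the minus strand at chr6:126101413-126166744. Ntrk2 (ENSMUSG00000055254) lies on the plus strand at chr13:58806596-59133970, and Ntrk3 (ENSMUSG00000059146) on the minus strand at chr7:78192362-78578408. Sort1 (ENSMUSG00000068747) lies on the plus strand at chr3:108284091-108361511. GENCODE M21 gives Ngfr a single transcript and Bdnf 11 transcripts, so that a Bdnf count sums over several first exons. Annotated antisense genes span parts of the exons of Bdnf, Ntrk2 and Sort1. Whether their own exons lie there was not examined. Because the strand setting of the counting is not given in the sources used here, reads of the 2 strands cannot be told apart there. A gene on the same strand, Gm39038, spans 221 bases of Ntrk3 exons.

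RefSeq promoter windows on GRCm38.p6, each reaching from 250 bases before a transcript start to 50 bases after it, were found for 4 of the 6 genes. There were 11 windows, of which 7 belonged to Bdnf. Some are shown because Ngfr, Bdnf and Ntf3 carry the differences described below. Each of the 11 was searched on both strands for the Smad box CAGAC, the AP-1 site TGANTCA, the CRE TGACGTCA and the GC box GGGCGG. These motifs do not overlap in the windows shown, and capitals mark every match, including matches on the opposite strand. The Ngfr window had a GC content of 71.7%, with 4 GC boxes and no match to the other motifs. The first Bdnf window shown had 2 Smad boxes, and the second had an AP-1 match and 2 GC boxes. The Ntf3 window shown had a Smad box on the opposite strand and a GC box. Ntf3 has 2 windows, and the one not shown had 2 GC boxes and no match to the other motifs. Some Bdnf windows not shown had no match to any motif.
Ngfr, minus strand, chr11:95587649-95587948: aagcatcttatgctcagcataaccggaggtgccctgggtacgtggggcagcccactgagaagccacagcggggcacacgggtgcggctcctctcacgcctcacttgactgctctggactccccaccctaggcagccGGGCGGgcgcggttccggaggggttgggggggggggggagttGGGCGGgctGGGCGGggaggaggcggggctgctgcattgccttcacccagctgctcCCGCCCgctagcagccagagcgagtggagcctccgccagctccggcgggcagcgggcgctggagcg
Bdnf, plus strand, chr2:109694159-109694458: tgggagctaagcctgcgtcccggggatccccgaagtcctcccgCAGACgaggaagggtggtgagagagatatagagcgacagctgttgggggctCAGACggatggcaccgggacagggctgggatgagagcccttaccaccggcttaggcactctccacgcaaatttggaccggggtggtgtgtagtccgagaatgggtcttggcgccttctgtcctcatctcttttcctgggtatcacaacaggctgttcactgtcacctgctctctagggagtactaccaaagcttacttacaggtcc
Bdnf, plus strand, chr2:109676782-109677081: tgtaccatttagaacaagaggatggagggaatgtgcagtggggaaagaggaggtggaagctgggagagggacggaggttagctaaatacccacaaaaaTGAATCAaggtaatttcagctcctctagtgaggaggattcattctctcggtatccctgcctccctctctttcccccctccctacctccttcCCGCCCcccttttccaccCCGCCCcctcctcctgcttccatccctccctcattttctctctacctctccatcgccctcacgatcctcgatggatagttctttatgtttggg
Ntf3, minus strand, chr6:126166695-126166994: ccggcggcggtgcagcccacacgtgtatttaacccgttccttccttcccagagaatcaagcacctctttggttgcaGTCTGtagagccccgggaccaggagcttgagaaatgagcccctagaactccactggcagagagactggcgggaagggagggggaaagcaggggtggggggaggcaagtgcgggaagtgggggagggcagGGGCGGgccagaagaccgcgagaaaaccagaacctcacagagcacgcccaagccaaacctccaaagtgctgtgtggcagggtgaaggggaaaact
Smad boxes occurred in 5 of the 11 windows, AP-1 matches in 1, CREs in 0 and GC boxes in 6. Among all 32851 mouse windows of this length, 49.6% held a Smad box, 7.81% an AP-1 match, 1.79% a CRE and 35.7% a GC box. A Smad box is therefore a common occurrence in such windows, and a match or its absence is given only as a description of these letters.

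Total counts ranged from 19056916 to 25371321 per library. Smad7 itself fell from 74.4 ± 2.94 to 29.4 ± 1.48 CPM (SD, n = 3) in unstimulated cells and from 146 ± 4.24 to 76.8 ± 5.89 CPM (SD, n = 3) in TGF-β1-stimulated cells, so reads remained in Smad7-KO libraries. Its log2 fold changes were -1.34 and -0.92 (edgeR's adjusted p = 9.02e-06 and 0.000115). CPM here are counts scaled by TMM to a common library size, for comparing a gene between conditions, whereas the deposited FPKM, which divide the count by gene length and library total, are used to compare genes. Adjusted p values come from the quasi-likelihood test of edgeR after Benjamini-Hochberg adjustment over all genes tested, are given below as edgeR's adjusted p, and count as called up to 0.05. Fibroblast markers were present, with Pdgfra between 7.92 and 14.2 FPKM and Col1a1 between 159 and 404 FPKM over the 12 libraries. Macrophage markers were also abundant, with Lyz2, encoding a lysozyme of myeloid cells, between 6983 and 11930 FPKM and Csf1r, encoding a growth factor receptor of macrophages, between 138 and 369 FPKM. The 8 macrophage markers summed to 11890 to 18480 FPKM in unstimulated control and 16460 to 18340 FPKM in unstimulated Smad7-KO libraries, which overlapped. With TGF-β1 they summed to 11840 to 14010 FPKM in control and 15410 to 18090 FPKM in Smad7-KO libraries, without overlap, and 4 of the 8 were higher with Smad7 loss in each comparison. The 8 endothelial markers summed to 74.7 to 87.4 FPKM in control libraries and to 5.21 to 6.50 FPKM in Smad7-KO libraries, and 6 of the 8 were lower in each comparison, with median log2 fold changes of -3.76 and -3.10. The 5 epicardial and mesothelial markers summed to 119 to 139 FPKM in unstimulated control and 70.1 to 83.1 FPKM in unstimulated Smad7-KO libraries, with 4 of 5 lower and a median of -0.79, and in stimulated cells 2 of 5 were lower, with a median of -1.02. Of the 9 fibroblast markers 2 were higher and 2 lower in each comparison, the lower ones being Thy1 (-1.55 and -1.34) and Tcf21 (-1.30 and -0.88). Of the smooth muscle and pericyte markers 2 of 6 tested were lower in unstimulated and 1 in stimulated cells, and of the cardiomyocyte markers 2 of 4 tested and 0. Beside these marker counts, 12.1% of all genes tested were called higher and 13.7% lower with Smad7 loss in unstimulated cells. In stimulated cells the shares were 5.72% and 7.23%. In bulk RNA, fewer cells of a type and less RNA per cell cannot be told apart.

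**Figure D1:**
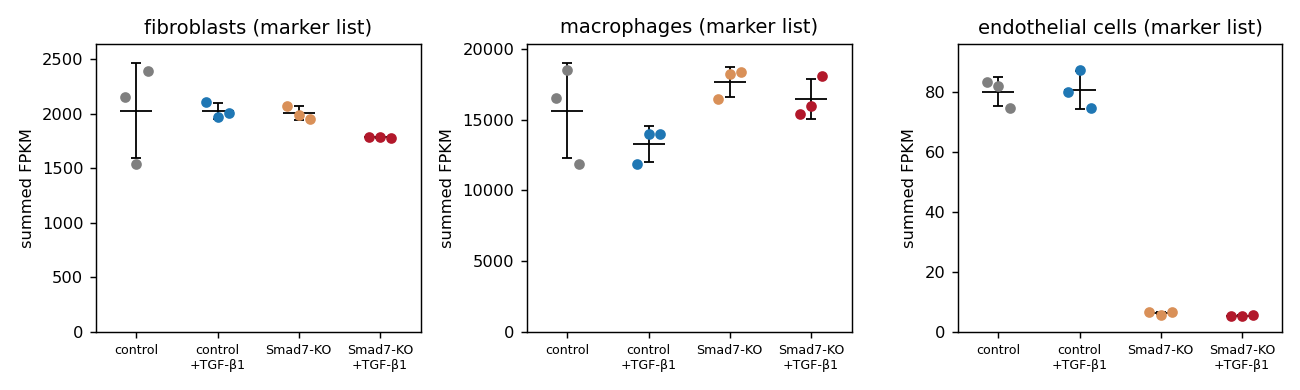
Summed FPKM of the fibroblast, macrophage and endothelial marker lists in each library (points), with the mean and SD of the 3 libraries of a condition (bars) on linear axes that start at 0. Endothelial marker sums were 74.7 to 87.4 FPKM in control libraries and 5.21 to 6.50 FPKM in Smad7-KO libraries, whereas the macrophage sums overlapped between genotypes in unstimulated cells and were higher in every Smad7-KO library with TGF-β1.

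Transcripts of Bdnf were far more abundant than those of Ntf3, Ntf5, Ntrk2, Ntrk3 and Ngfr. Per length, Bdnf was at 29.7 ± 2.35 FPKM in unstimulated control cells, Ntf5 at 0.680 ± 0.196 FPKM and Ntf3 at 0.405 ± 0.122 FPKM (SD, n = 3). The libraries of Ntf5 and Ntf3 overlapped, so their order is within the spread. Among the receptors Sort1 was at 6.98 ± 3.10 FPKM and Ngfr at 0.0757 ± 0.0522 FPKM in the same cells (SD, n = 3). Ntrk2 and Ntrk3 stayed low in every condition, with means between 0.0142 and 0.0427 FPKM for Ntrk2 and between 0.0898 and 0.214 FPKM for Ntrk3. With TGF-β1, Ngfr reached 0.899 ± 0.0966 FPKM in control and 0.727 ± 0.0981 FPKM in Smad7-KO cells (SD, n = 3), above every value of Ntrk2 and Ntrk3 in the 12 libraries and still below Sort1.

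**Figure D2:**
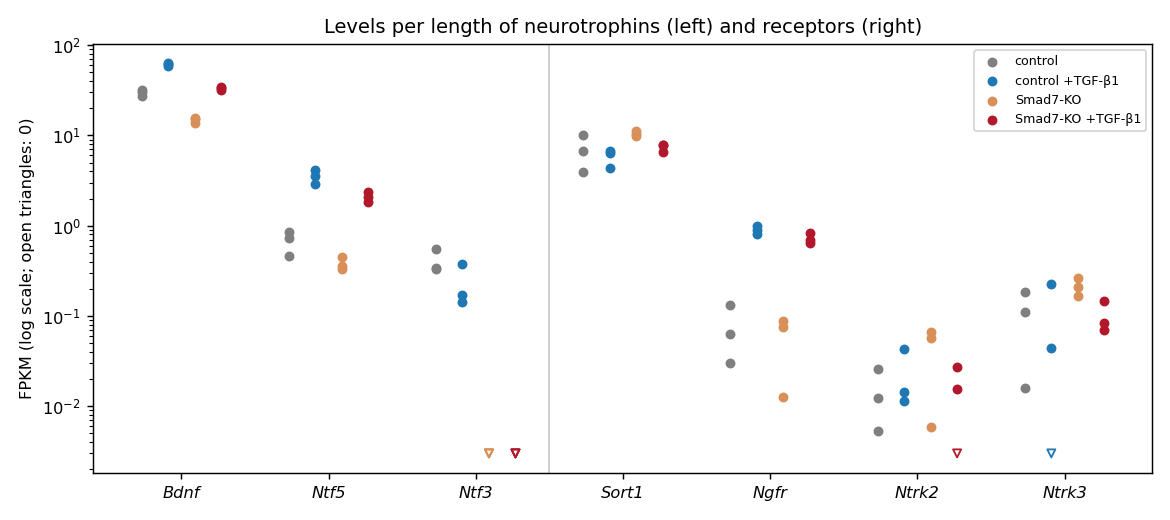
Deposited FPKM of Bdnf, Ntf5 and Ntf3 (left of the line) and of Sort1, Ngfr, Ntrk2 and Ntrk3 (right), on a log scale, with a point for each of the 12 libraries coloured by condition and open triangles for libraries at 0. Bdnf lies above Ntrk2 and Ntrk3, which reach at most 0.265 FPKM, and Ngfr lies higher in the TGF-β1 libraries of both genotypes.

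Ngfr transcripts were scarce in unstimulated libraries, at 1 to 10 counts each, and more numerous in TGF-β1 libraries, at 48 to 83 counts each. In unstimulated control libraries 1, 2 and 3 the counts of Ngfr were 10, 2 and 5, and in unstimulated Smad7-KO libraries they were 6, 1 and 6. In TGF-β1 control libraries they were 83, 76 and 56, and in TGF-β1 Smad7-KO libraries 61, 65 and 48. Every stimulated library was above every unstimulated library, and within each state control and Smad7-KO libraries overlapped. As CPM, the level of Ngfr was 0.258 ± 0.172 in unstimulated control and 3.06 ± 0.319 in TGF-β1 control cells, and 0.200 ± 0.137 in unstimulated and 2.55 ± 0.352 in TGF-β1 Smad7-KO cells (SD, n = 3). The log2 difference with TGF-β1 was 3.50 (SE 0.441) in control cells, or 11.3-fold, and 3.66 (SE 0.462) in Smad7-KO cells, or 12.6-fold. Ngfr thereby stood at rank 14 from the top among the 15150 genes tested in control cells and at rank 21 in Smad7-KO cells. Because this response chose the gene, the values are a description and no test is given. They rest on few reads in unstimulated cells, Ngfr passed the filter on low counts through TGF-β1 libraries, and without unstimulated control library 1 the log2 difference in control cells was 4.14. In the same comparisons 5.04% of all genes tested were called higher and 3.33% lower with TGF-β1 in control cells, and 5.33% higher and 4.9% lower in Smad7-KO cells.

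**Figure D3:**
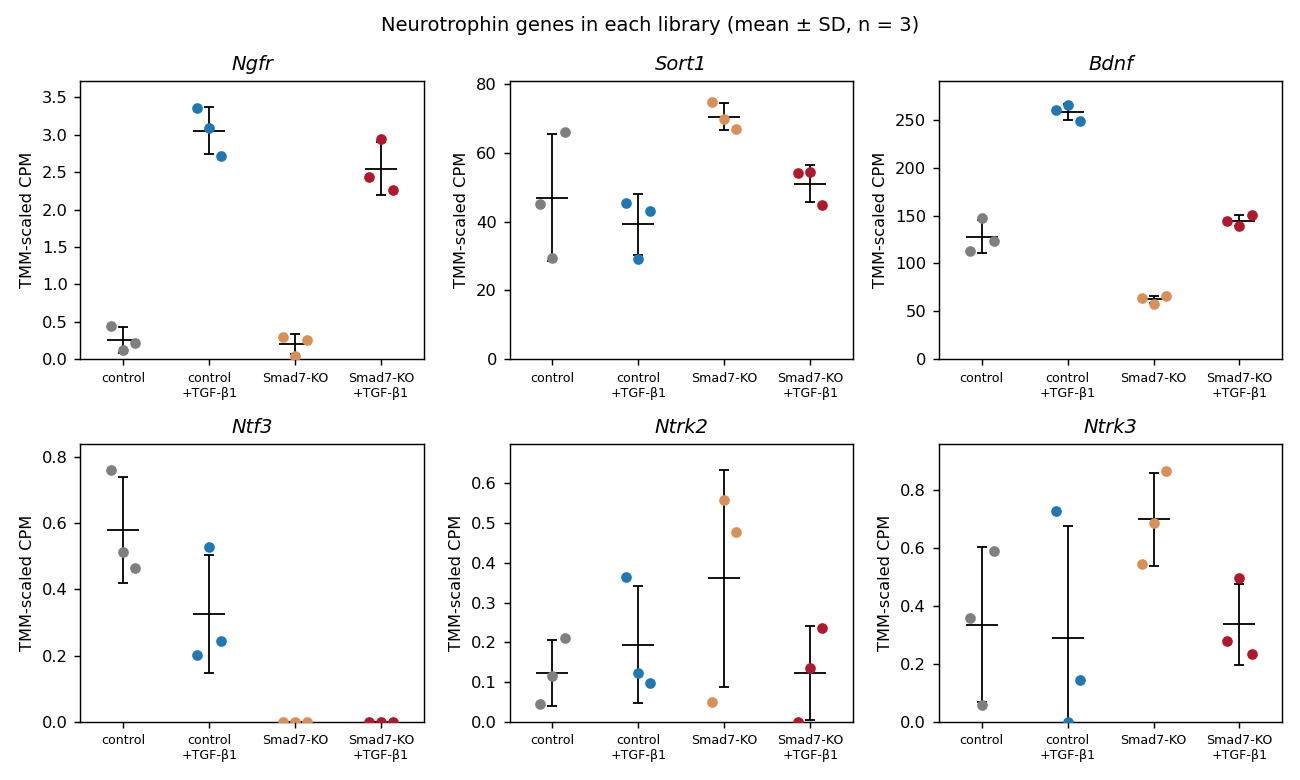
TMM-scaled CPM of Ngfr, Sort1, Bdnf, Ntf3, Ntrk2 and Ntrk3 in each library (points), with the mean and SD of the 3 libraries of a condition (bars) on linear axes that start at 0. TGF-β1 libraries of Ngfr lie between 2.27 and 3.36 CPM and unstimulated ones between 0.0429 and 0.448 CPM, Bdnf is lower in Smad7-KO than in control cells in each state, and Ntf3 is at 0 in all 6 Smad7-KO libraries.

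Smad7 loss left no detectable difference in Ngfr at this depth. The log2 fold change of Smad7-KO over control was -0.42 (SE 0.589, edgeR's adjusted p = 0.597) in unstimulated cells, with a 95% interval of the fold from 0.336 to 1.66. In TGF-β1-stimulated cells it was -0.26 (SE 0.344, edgeR's adjusted p = 0.63), with an interval from 0.522 to 1.33. These intervals include an equal level and do not show that the genotypes are alike. The interaction, which asks whether the TGF-β1 response differs between genotypes, was 0.16 on the log2 scale (SE 0.653), with an interval from -1.12 to 1.44. Because the set was selected on a rise of Ngfr in both genotypes, this interaction is a description and no test of it is given. The direction of the unstimulated difference was not stable, since without unstimulated control library 1 the log2 fold change was 0.23 and without unstimulated Smad7-KO library 2 it was 0.071.

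The 5 genes whose log2 CPM followed Ngfr most closely over the 12 libraries, among 12203 genes compared, were Ppp1r13l (Pearson r = 0.986), Klhl6 (0.976), Lif (0.969), Cx3cr1 (0.969) and Endod1 (0.968). The 12 points share the 4 conditions, so these coefficients describe mainly the step with TGF-β1, and no p is given. Ppp1r13l, which encodes an inhibitor of p53, was at 9.60 ± 1.93 CPM in unstimulated and 33.7 ± 0.602 CPM in TGF-β1 control cells, and at 8.75 ± 2.101 and 28.0 ± 1.36 CPM in the corresponding Smad7-KO cells (SD, n = 3). Lif, encoding leukemia inhibitory factor, was at 13.7 ± 3.43 and 54.4 ± 4.58 CPM in control cells and at 12.8 ± 2.23 and 44.6 ± 5.95 CPM in Smad7-KO cells (SD, n = 3). Cx3cr1, the fractalkine receptor of macrophages and microglia, was at 84.3 ± 17.9 and 264 ± 7.60 CPM in control cells and at 63.8 ± 8.89 and 299 ± 16.9 CPM in Smad7-KO cells (SD, n = 3). By Spearman correlation the same genes ranked from 9 (Endod1) to 381 (Cx3cr1), so their order depends on the measure.

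Bdnf was lower with Smad7 loss in both states. In unstimulated control libraries its level was 113, 147 and 124 CPM, and in unstimulated Smad7-KO libraries 63.6, 58.0 and 65.6 CPM. In TGF-β1 control libraries it was 260, 266 and 249 CPM, and in the corresponding Smad7-KO libraries 144, 139 and 151 CPM. No Smad7-KO library reached a control library of the same state. The log2 fold change of Smad7-KO over control was -1.04 (SE 0.108, edgeR's adjusted p = 0.00015) in unstimulated cells, which is 2.05-fold lower with a 95% interval of the fold from 0.421 to 0.565. In TGF-β1-stimulated cells it was -0.84 (SE 0.107, edgeR's adjusted p = 0.000687), or 1.78-fold lower, with an interval from 0.485 to 0.649.

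Bdnf was also higher with TGF-β1 in both genotypes, by 1.01 (SE 0.108) on the log2 scale in control and by 1.21 (SE 0.109) in Smad7-KO cells, values given without a test because the set was selected on this contrast. The interaction was 0.20 (SE 0.151, edgeR's adjusted p = 0.98), with a 95% interval of the log2 difference from -0.095 to 0.50. From highest to lowest the conditions ran TGF-β1 control, TGF-β1 Smad7-KO, then unstimulated control, then unstimulated Smad7-KO. The middle pair overlapped in CPM, with 139 to 151 CPM against 113 to 147 CPM, but not in FPKM, with 32.0 to 34.8 FPKM against 27.1 to 31.7 FPKM. The sums of the endothelial and of the epicardial and mesothelial markers moved in the same direction with Smad7 loss, as given above. Of 5 tested markers of Schwann cells and glia, S100b was lower in unstimulated cells (-2.49, edgeR's adjusted p = 0.000253), whereas Mbp (0.94, edgeR's adjusted p = 0.00644) and Erbb3 (1.15, edgeR's adjusted p = 0.043) were higher. The part of these cell types in the lower Bdnf counts was not tested.

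Ntf3 was detected only in control cells. Its counts were 17, 9 and 11 in unstimulated control libraries and 5, 13 and 5 in TGF-β1 control libraries, whereas all 6 Smad7-KO libraries held 0. Against a floor of 3 counts over the libraries of a condition, Ntf3 was at least 12.9-fold lower with Smad7 loss in unstimulated cells and at least 7.50-fold lower in TGF-β1-stimulated cells. Ntf3 passed the filter on low counts through control libraries alone, so it entered the fit only because it was higher there, and these values are given as a description without a test. Both bounds cover counting error only. The log2 difference with TGF-β1 in control cells was -0.82 (SE 0.534), with overlapping libraries, and no fold can be given in Smad7-KO cells. Endothelial, epicardial and mesothelial markers were lower in the same comparisons, and their part in the absence of Ntf3 reads was not tested.

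Of the 5 genes that passed the filter, and with Ntf3 set aside, Bdnf was called lower and 0 were called higher in each Smad7-loss comparison. Among all 15150 genes tested, 13.7% were called lower and 12.1% higher in unstimulated cells, and 7.23% lower and 5.72% higher in TGF-β1-stimulated cells. In the interaction 0.0198% of all genes were called, which was 3 genes, with 392 at an unadjusted p under 0.05. None of Bdnf, Ntrk3 and Sort1 was called there by edgeR or by DESeq2, and none of them had an unadjusted p under 0.05 in edgeR. Ngfr is left out of this statement, because the set was selected on its rise in both genotypes.

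Ntf5, which encodes neurotrophin-4 and is outside the chosen set, was low without TGF-β1 and higher with it. Its counts were 20, 27 and 38 in unstimulated control libraries and 137, 199 and 140 in TGF-β1 control libraries, and 14, 15 and 20 against 103, 81 and 99 in Smad7-KO libraries. The log2 fold change with TGF-β1 was 2.34 (SE 0.245, edgeR's adjusted p = 9.91e-05) in control and 2.49 (SE 0.263, edgeR's adjusted p = 8.19e-05) in Smad7-KO cells. With Smad7 loss Ntf5 passed the test in unstimulated cells, at -0.86 (SE 0.282, edgeR's adjusted p = 0.0446), and missed it in TGF-β1-stimulated cells, at -0.72 (SE 0.222, edgeR's adjusted p = 0.0559). The interaction did not show that these values differ, at 0.15 (edgeR's adjusted p = 0.98).

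**Figure D4:**
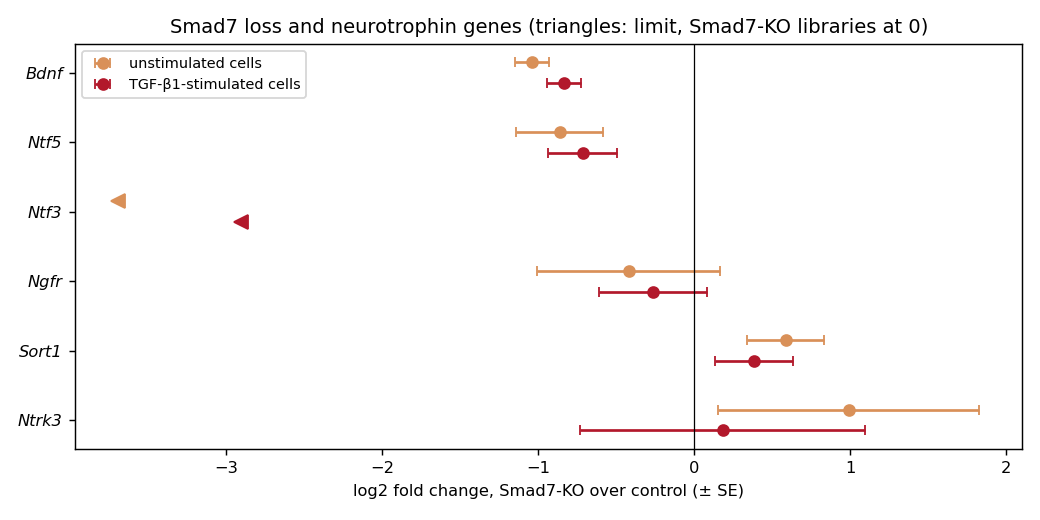
Log2 fold change of Smad7-KO over control cells (points, with SE as bars) for Bdnf, Ntf5, Ntf3, Ngfr, Sort1 and Ntrk3, with and without TGF-β1. Triangles for Ntf3 mark the limits of 12.9-fold and 7.50-fold lower that counts of 0 in Smad7-KO libraries allow. Bdnf and Ntf5 lie below 0 in both states, with Ntf5 past the threshold in unstimulated cells alone, whereas no receptor plotted passed the test.

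Sort1 was the most abundant of the receptors in the set. Its level was 45.3, 29.3 and 66.3 CPM in unstimulated control libraries and 74.8, 69.9 and 67.1 CPM in unstimulated Smad7-KO libraries. In TGF-β1 control libraries it was 45.4, 29.2 and 43.2 CPM, and in the corresponding Smad7-KO libraries 54.2, 54.4 and 44.8 CPM. Unstimulated control libraries were widely spread, and every unstimulated Smad7-KO library lay above them in CPM, but not in FPKM, in which unstimulated control library 3 was at 10.2 FPKM and Smad7-KO library 3 at 9.95 FPKM. The log2 fold change with Smad7 loss was 0.59 (SE 0.249, edgeR's adjusted p = 0.0938) in unstimulated cells, with a 95% interval of the fold from 1.07 to 2.104. In stimulated cells it was 0.38 (SE 0.249, edgeR's adjusted p = 0.327), with an interval from 0.929 to 1.83, and the genotypes overlapped. Neither difference passed the test, but without unstimulated control library 3 the unstimulated difference was 0.92 and passed (edgeR's adjusted p = 0.0036). The TGF-β1 differences were -0.26 (SE 0.249) in control cells, with overlapping libraries, and -0.46 (SE 0.248) in Smad7-KO cells, without overlap, and without unstimulated control library 3 the value in control cells was 0.073.

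Sorl1, which encodes a sorting receptor of the same family as sortilin, was higher with Smad7 loss. Its log2 fold change was 1.57 (SE 0.265, edgeR's adjusted p = 0.00267) in unstimulated and 1.24 (SE 0.265, edgeR's adjusted p = 0.0108) in TGF-β1-stimulated cells, with a mean of 1.42 FPKM in unstimulated control and 4.20 FPKM in unstimulated Smad7-KO cells. The other Vps10 family receptors were low, with Sorcs1 and Sorcs2 at means of at most 0.337 FPKM and neither called, and Sorcs3 at 0 to 4 summed counts per condition and not tested. Of the macrophage markers, 4 of 8 were higher in the same comparisons, with medians of 0.40 and 0.47 on the log2 scale over the list, and their part in the higher Sorl1 was not tested.

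Ntrk3 and Ntrk2 were near the limit of detection. The counts of Ntrk3, the receptor of neurotrophin-3, were 8, 1 and 14 in unstimulated control and 18, 0 and 3 in TGF-β1 control libraries. They were 11, 16 and 20 in unstimulated and 7, 11 and 5 in TGF-β1 Smad7-KO libraries. Control libraries ranged from 0 to 18 counts, and the difference with Smad7 loss was within the spread. Its log2 fold change was 0.99 (SE 0.837, edgeR's adjusted p = 0.374) in unstimulated and 0.18 (SE 0.914, edgeR's adjusted p = 0.912) in stimulated cells. The corresponding 95% intervals of the fold ran from 0.638 to 6.20 and from 0.328 to 3.92. The TGF-β1 differences were -0.24 (SE 0.913) in control cells and -1.05 (SE 0.836) in Smad7-KO cells, and the former turned positive without each of 3 libraries (unstimulated control 3, 0.42, and TGF-β1 control 2 and 3, 0.35 and 0.062). Leaving out TGF-β1 control library 1 gave -2.28.

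Ntrk2, the receptor of BDNF, had 1, 2 and 5 counts in unstimulated control and 9, 3 and 2 in TGF-β1 control libraries. It had 1, 13 and 11 counts in unstimulated Smad7-KO and 0, 3 and 5 in TGF-β1 Smad7-KO libraries. Every pair of neighbouring conditions overlapped, and Ntrk2 did not pass the filter on low counts and was not tested. In an exact permutation test (two-sided) of its CPM over 3 libraries against 3, which cannot go below 0.1, p was 0.3 for Smad7 loss in unstimulated and 0.7 in stimulated cells.

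Of the 8 other neurotrophin receptors and co-receptors tested, 1 (Sorl1) was higher and 2 were lower with Smad7 loss in unstimulated cells. Among all genes 12.1% were higher and 13.7% lower there. In stimulated cells 1 of the 8 was higher and 0 were lower, beside 5.72% and 7.23% of all genes. Whether the list differs from all genes was not tested. Rtn4r, encoding the Nogo receptor, with which p75NTR can form a complex, was lower with Smad7 loss in unstimulated cells, by -1.10 on the log2 scale (SE 0.207, edgeR's adjusted p = 0.00463), and not called in stimulated cells, at -0.31 (SE 0.196, edgeR's adjusted p = 0.309), with the interaction not called either (0.78, edgeR's adjusted p = 0.98). It was higher with TGF-β1 in Smad7-KO cells, by 1.05 (SE 0.206, edgeR's adjusted p = 0.00616). Lingo1, a further member of that complex, stayed between means of 4.05 and 5.23 FPKM and was not called in any comparison. Nradd, which encodes a death-domain protein related to p75NTR, was lower with Smad7 loss in unstimulated cells, at -0.85 (SE 0.239, edgeR's adjusted p = 0.0273), and not called in stimulated cells, at -0.60 (edgeR's adjusted p = 0.124). Kidins220, a scaffold of Trk and p75NTR, was between means of 17.2 and 27.4 FPKM and was not called.

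Among 20 genes for p75NTR adaptors and processing enzymes, 19 were tested. With Smad7 loss 4 were higher and 3 lower in unstimulated cells (21.1% and 15.8%, beside 12.1% and 13.7% of all genes), and 2 were higher and 3 lower in TGF-β1-stimulated cells (10.5% and 15.8%, beside 5.72% and 7.23%). Ngfrap1, which encodes a p75NTR-associated cell death executor, had log2 fold changes of -1.20 (SE 0.264, edgeR's adjusted p = 0.00988) and -1.05 (SE 0.264, edgeR's adjusted p = 0.0233). Zfp369, encoding a zinc finger protein that can bind p75NTR, was higher, by 0.67 (edgeR's adjusted p = 0.0409) and 1.10 (edgeR's adjusted p = 0.00733). Adam17, a sheddase that can cleave p75NTR, was also higher, by 0.79 (edgeR's adjusted p = 0.00177) and 0.62 (edgeR's adjusted p = 0.00804). With TGF-β1, Ripk2 and Adam10 were higher in both genotypes (10.5% of the list, beside 5.04% of all genes in control and 5.33% in Smad7-KO cells). In the list 0 genes were lower, beside 3.33% and 4.9% of all genes. Ripk2, a kinase that can bind the p75NTR death domain, changed by 0.45 in control and 0.70 in Smad7-KO cells (edgeR's adjusted p = 0.0469 and 0.00341).

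Of 22 Trk adaptor genes tested, 6 were higher and 0 lower with Smad7 loss in unstimulated cells, and 3 were higher and 0 lower in stimulated cells. The higher genes were 27.3% and 13.6% of the list, beside 12.1% and 5.72% of all genes. The 6 included Gab2, a docking protein, at 0.78 (SE 0.22, edgeR's adjusted p = 0.0275), and Pik3r1, a regulatory subunit of PI3-kinase, at 0.58 (SE 0.17, edgeR's adjusted p = 0.0317). With TGF-β1 the adaptor Sh2b2 was higher, by 1.96 (SE 0.204, edgeR's adjusted p = 9.81e-05) in control and 2.26 (SE 0.204, edgeR's adjusted p = 3.16e-05) in Smad7-KO cells. Gab1, a docking protein related to Gab2, was lower, by -0.85 (SE 0.0811, edgeR's adjusted p = 5.22e-05) and -0.95 (SE 0.0813, edgeR's adjusted p = 1.99e-05). These adaptors serve many receptors besides the Trk family.

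Among the 10 tested proteases and inhibitors that act on pro-neurotrophins, 2 were higher with TGF-β1 in each genotype, beside 5.04% and 5.33% of all genes, and 1 was lower in Smad7-KO cells. This was Plat, encoding tissue plasminogen activator, at -0.53 (edgeR's adjusted p = 0.011). Furin, a convertase that cleaves pro-BDNF, was higher in both, by 1.07 (SE 0.207, edgeR's adjusted p = 0.00646) in control and 0.89 (SE 0.205, edgeR's adjusted p = 0.0163) in Smad7-KO cells. With Smad7 loss 2 of the 10 were higher and 2 lower in unstimulated cells, and 1 was higher and 3 were lower in stimulated cells. Mmp3, encoding a matrix metalloproteinase, was higher in both states, at 0.72 and 0.84 (edgeR's adjusted p = 0.036 and 0.0269), and the convertase Pcsk5 was lower in both states, at -1.04 (edgeR's adjusted p = 0.00118) and -1.04 (edgeR's adjusted p = 0.00153).

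Of 25 other members of the TNF receptor superfamily, to which Ngfr belongs, 8 were higher and 0 lower with TGF-β1 in control cells, and in Smad7-KO cells 8 were higher and 1 was lower. The higher genes were 32.0% of the 25 in each genotype, beside 5.04% and 5.33% of all genes. Tnfrsf11b, encoding osteoprotegerin, rose by 1.67 (SE 0.134, edgeR's adjusted p = 1.42e-05) and 1.40 (SE 0.133, edgeR's adjusted p = 4.26e-05), and Tnfrsf8, encoding CD30, by 2.02 (SE 0.431, edgeR's adjusted p = 0.0118) and 1.38 (SE 0.4, edgeR's adjusted p = 0.0494). Tnfrsf13c, the BAFF receptor of B cells, had 2, 0 and 0 counts in unstimulated control and 12, 19 and 20 in TGF-β1 control libraries. In Smad7-KO cells it had 0 in all unstimulated libraries against 20, 12 and 17 with TGF-β1, which is at least 15.9-fold higher. Tnfrsf13c passed the filter on low counts through TGF-β1 libraries alone, so these values are a description, though it is among the 25 genes counted. With Smad7 loss, 6 of the 25 were higher and 4 lower in unstimulated cells, and 3 were higher and 5 lower in stimulated cells.

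Of 8 genes known to answer neurotrophins in neural cells, Egr2 was higher with TGF-β1 in both genotypes, by 1.22 (edgeR's adjusted p = 0.000201) and 0.91 (edgeR's adjusted p = 0.0012), and Egr1 in Smad7-KO cells alone passed the test, at 1.12 (edgeR's adjusted p = 0.00128), with the difference between genotypes not called. Egr1 started lower in Smad7-KO cells, at 19.6 ± 5.63 CPM without and 42.6 ± 1.83 CPM with TGF-β1. In control cells it was at 47.7 ± 1.89 and 60.9 ± 2.34 CPM (SD, n = 3). Nr4a1, an orphan nuclear receptor gene induced early by growth factors, was lower with Smad7 loss, at -1.33 (edgeR's adjusted p = 0.000222) and -1.19 (edgeR's adjusted p = 0.000583). Of the 10 tested genes of the GDNF family and other neurotrophic factors, 0 were higher and 3 were lower with Smad7 loss in unstimulated cells, 2 were lower in stimulated cells, and Gfra2, a receptor of neurturin, was lower with TGF-β1 in both genotypes, at -0.74 in each (edgeR's adjusted p = 0.0192 and 0.0237).

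Over all 8 lists, with the 6 chosen genes left out, 104 of 112 genes were tested. They include Tnfrsf13c, which passed the filter on low counts through TGF-β1 libraries alone, so the counts with TGF-β1 are not free of that filter. With TGF-β1, 16 were higher and 2 lower in control cells (15.4% and 1.92%, beside 5.04% and 3.33% of all genes), and in Smad7-KO cells 18 were higher and 5 lower (17.3% and 4.81%, beside 5.33% and 4.9%). With Smad7 loss, 19 were higher and 18 lower in unstimulated cells (18.3% and 17.3%, beside 12.1% and 13.7%), and 10 were higher and 15 lower in stimulated cells (9.62% and 14.4%, beside 5.72% and 7.23%). The median log2 fold changes of the 104 genes were 0.12 and 0.085 with TGF-β1 and -0.025 and -0.072 with Smad7 loss, beside -0.032, -0.010, -0.015 and -0.021 for all genes. In the interaction 0 of the 104 were called by edgeR and by DESeq2, with 5 at an unadjusted p under 0.05 in edgeR. The counts depended on single libraries and on which libraries entered the fit. Unstimulated control libraries 1, 2 and 3 were widely spread for some called genes. Ngfrap1, lower with Smad7 loss, was at 43.0, 68.4 and 29.4 CPM there, and Gab2, higher with Smad7 loss, at 73.9, 48.1 and 99.2 CPM. The unstimulated Smad7-KO libraries did not overlap with these, at 19.7 to 21.6 CPM and 124 to 133 CPM. The cause of this spread was not tested. With only the libraries of the comparison, the 37 calls with Smad7 loss in unstimulated cells became 11. For Smad7 loss in unstimulated cells the 37 calls became 20 when unstimulated control library 1 was left out, and 18, 18 and 16 when libraries 1, 2 and 3 of unstimulated Smad7-KO cells were. In stimulated cells the 25 calls became 43 without unstimulated control library 2, 12 without TGF-β1 control library 2, and 14, 15 and 16 when libraries 1, 2 and 3 of TGF-β1 Smad7-KO cells were left out. With TGF-β1 the 18 calls in control cells became 31 without unstimulated control library 3, and the 23 in Smad7-KO cells became 15 without TGF-β1 Smad7-KO library 2.

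**Figure D5:**
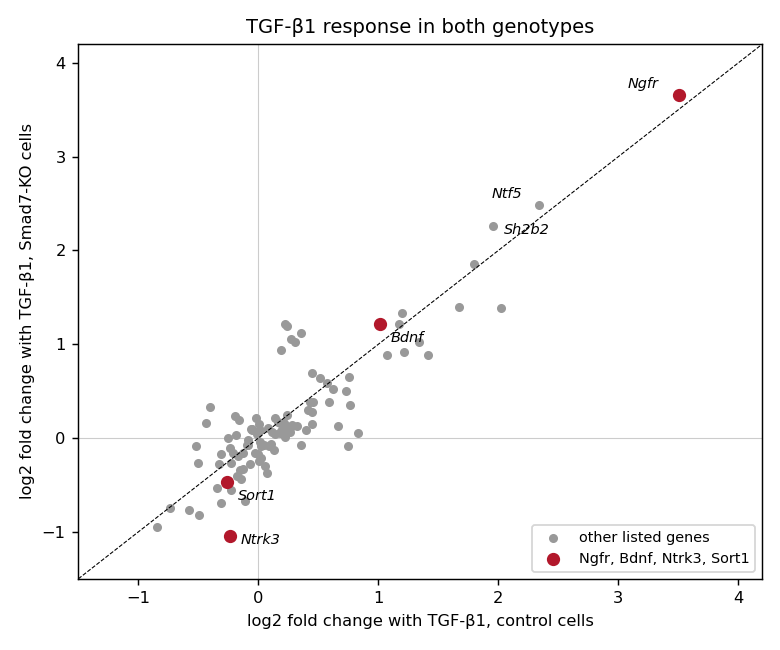
Log2 fold change with TGF-β1 in control cells (horizontal) and in Smad7-KO cells (vertical) for 107 tested genes, which are Ngfr, Bdnf, Ntrk3 and Sort1 (red) and other genes of the 8 lists (grey), with Ntf3 and Tnfrsf13c left out because of conditions at 0. The dashed line marks equal values, the axes share no library, and Ngfr lies farthest from the origin at 3.50 and 3.66, followed by Ntf5 at 2.34 and 2.49.

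Because Ngfr is also a marker of Schwann cells and their precursors, the defining genes of that lineage were read beside it. Foxd3 was at most 0.0423 FPKM, in a TGF-β1 control library, and at 0 in all unstimulated and all Smad7-KO libraries. Sox10 was at 0 in all unstimulated control libraries and between 0.0304 and 0.0544 FPKM in TGF-β1 control libraries, and at most 0.114 FPKM in any library. The 9 Schwann cell and glial markers summed to 12.6 to 13.7 FPKM in unstimulated control and 13.1 to 13.8 FPKM in TGF-β1 control libraries, and to 12.3 to 13.4 and 11.5 to 12.4 FPKM in the corresponding Smad7-KO libraries. S100b and Mbp made up most of these sums and differed in opposite directions between genotypes. In unstimulated control libraries S100b was at 4.89 to 9.34 FPKM and Mbp at 3.19 to 6.73 FPKM. In unstimulated Smad7-KO libraries S100b was at 1.08 to 1.49 FPKM and Mbp at 9.13 to 10.3 FPKM. Of the 5 glial markers tested, 0 were called with TGF-β1 in either genotype. Among 8 neuronal markers, Elavl4 was at most 0.0356 FPKM and Snap25 at most 0.0281 FPKM. Dbh, which encodes the enzyme that makes noradrenaline, was at most 0.0206 FPKM in unstimulated and between 0.0771 and 0.434 FPKM in TGF-β1 control libraries, and at most 0.0343 FPKM against 0.243 to 0.324 FPKM in Smad7-KO libraries. Tubb3, a tubulin gene of neurons and other cells, was higher with TGF-β1 in Smad7-KO cells, from between 25.6 and 31.2 FPKM to between 44.2 and 51.0 FPKM (log2 fold change 0.77, edgeR's adjusted p = 0.00843), and not called in control cells (0.32, edgeR's adjusted p = 0.288). The neuronal markers summed to 25.9 to 31.9 FPKM in unstimulated and 44.6 to 51.6 FPKM in TGF-β1 Smad7-KO libraries, and to 33.8 to 43.7 and 43.1 to 58.4 FPKM in the corresponding control libraries, which overlapped. Of 3 neuronal markers tested, 2 were called higher with TGF-β1 in Smad7-KO and 1 in control cells, beside 5.33% and 5.04% of all genes. Dbh, near 0 FPKM without TGF-β1, passed the filter on low counts through TGF-β1 libraries. Prph, the remaining tested marker, was not called, at -1.56 in Smad7-KO cells (edgeR's adjusted p = 0.0952) and 0.14 in control cells (edgeR's adjusted p = 0.904). Tubb3 made up most of the neuronal sums. The part of neuronal markers in the higher Ngfr was not tested. Macrophage marker sums overlapped between stimulated and unstimulated libraries of each genotype, and 0 of the 8 markers were called with TGF-β1. Cx3cr1, a macrophage gene outside this list, was higher with TGF-β1 in both genotypes, as given above. The part of macrophages in the higher Ngfr was not tested.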

How the data were processed

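RNA-Seq libraries of polyadenylated RNA were sequenced by the authors as 100-bp paired-end reads. The submitters' processing notes name CASAVA, TopHat2 2.0, HTSeq 0.6.1 and Cufflinks 2.1.1 and the builds mm10 and GRCm38.p6, and the strand setting is not given in the sources used here. The authors deposited raw whole-number counts for each gene, and FPKM values, which in all 35275 genes equalled the deposited count over the product of gene length and library total. Of the identifiers, 34490 were found in GENCODE M21. The number of per-sample columns without a sample was 0.

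Counts of all 12 libraries were fitted together in edgeR 4.0.16 (R 4.3.3) by the quasi-likelihood test, with TMM scaling, filterByExpr at a minimum count of 10 and Benjamini-Hochberg adjustment over the 15150 genes tested. The study used DESeq2, which was an alternative here. Intervals of fold changes are a 95% normal approximation from the standard error, and bounds use a floor of 3 counts over a condition. With 3 libraries against 3, an exact two-sided permutation p cannot go below 0.1. Alternatives were DESeq2 1.42.0, its size factors, no filter, only the libraries of the comparison, the replicate number as a block, limma 3.58.1 on FPKM (log2 after adding 1, genes reaching 1 FPKM in at least 3 libraries), removal of a length trend, and leaving out each library. The fit was tested on simulated data.

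The members and lists were chosen with earlier results of these data known. Genes named were the members, every ligand and receptor, the 3 called genes with the largest change per list and comparison at most, Smad7, the 5 genes most like Ngfr (average log2 CPM 1 or higher), and marker genes. Sums of marker lists were added after the data were seen. Some genes that this rule names are not reported here, though list counts and sums include them.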

Additional observations from a re-analysis of the deposited data

How the results depend on the processing

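Apart from the main values, 538 were recomputed, and 504 kept their direction and side of the threshold or moved within the spread. Bdnf with Smad7 loss was called under every alternative run, between -1.24 and -0.92 on the log2 scale in unstimulated and between -0.92 and -0.80 in stimulated cells. With only the libraries of a comparison in the fit, which leaves fewer libraries to estimate the spread, the other pathway genes called were 11 instead of 37 (Smad7 loss, unstimulated), 44 instead of 25 (Smad7 loss, stimulated), 11 instead of 18 (TGF-β1, control) and 39 instead of 23 (TGF-β1, Smad7-KO). With 1 library left out these counts ranged from 16 to 51, 12 to 43, 14 to 31 and 15 to 30. Likewise Ngfr ranged from -0.78 to 0.23 (Smad7 loss, unstimulated), from 3.20 to 4.14 (TGF-β1, control) and from -0.49 to 0.52 (interaction), reversing without unstimulated control library 1 and unstimulated Smad7-KO library 2 in the first and last. Ntf3 ranged from -1.37 to -0.56 (TGF-β1, control). The adjusted p that edgeR gave Ntf3 ranged from 0.0124 to 0.0586 (Smad7 loss, stimulated). Ntf3 passed the filter through control libraries alone, so this p is no test of it. No conclusion on Ntf3 is drawn from that range. Ntrk3 ranged from -0.39 to 2.23 (Smad7 loss, stimulated), from -2.28 to 0.42 (TGF-β1, control) and from -1.47 to 1.23 (interaction). Sort1 ranged from 0.34 to 0.92 (Smad7 loss, unstimulated), from -0.51 to 0.073 (TGF-β1, control) and from -0.54 to 0.058 (interaction). The cause was not tested.

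Same-numbered libraries of different conditions mostly did not deviate together (median correlation 0.0241, with 1 of 18 pairs over 0.1). For differently numbered pairs the median was -0.0109, with 7 of 36 over 0.1. A pairing by number was not seen, but these correlations cannot exclude one. With the replicate block Bdnf was at -1.03 and -0.83, Ngfr at -0.40 and -0.25 with Smad7 loss, and no call of Ngfr, Bdnf, Ntrk3 or Sort1 changed. Ngfr could not be fitted with limma, because its FPKM did not pass that filter. Low counts of Ngfr, Ntf3, Ntrk2 and Ntrk3 limit their precision, and differences within the intervals given were not detectable at this depth.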
